A study of Homo sapiens with 36 samples.

Results

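The 9 histone genes described here, H1-10, H2AX, H2AZ1, H2AZ2, H2AJ, H3-3A, H3-3B, MACROH2A1 and MACROH2A2, were taken by name from a table of 29872 genes. The rule uses no measured value, but the group was proposed with earlier results of these data known. They are the human genes for histone variants that a cell can make outside S phase, and they stand beside 66 replication-dependent histone genes in the same table. The RNA came from LNCaP, an androgen-responsive line grown from a lymph node metastasis of a prostate cancer, so that every result concerns 1 established cell line. Cells were given vehicle, AU2-94 at 1 or 2 µM, atirmociclib at 1 or 2 µM, or ribociclib at 2 µM, for 24 h or 72 h, with 3 biological replicates in each of the 12 groups and 36 libraries in all. AU2-94, atirmociclib and ribociclib inhibit CDK4, the cyclin D-dependent kinase that opens the way into S phase, and ribociclib is a dual inhibitor of CDK4 and CDK6. In the authors' kinase assays atirmociclib and, more weakly, AU2-94 also inhibited CDK6. Atirmociclib inhibited CDK1, CDK2, CDK7 and CDK9 as well, each with greater potency than AU2-94. Wells meant for 72 h were seeded more thinly than those for 24 h, so time and seeding density cannot be told apart. The comparisons ask what each compound did to the RNA of these genes, whether the compounds and doses differed, and whether the effect differed between the time points.

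Most histone mRNA is made in S phase from clustered genes without introns, and it ends in a conserved stem-loop in place of a poly(A) tail. Replication-independent variants are made throughout the cycle and take the place of the canonical histones in chromatin. H2A.Z marks promoters and enhancers, H3.3 is laid down at transcribed genes and at telomeres, H2A.X is phosphorylated around DNA breaks, macroH2A carries a large extra domain and is enriched in silent chromatin, and H1.10 is a linker histone, which binds the DNA between nucleosomes.

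By GRCh38 annotation, H2AX (ENSG00000188486) lies at chr11:119093874-119095465 on the minus strand, H1-10 (ENSG00000184897) at chr3:129314771-129316286 on the minus strand and H2AJ (ENSG00000246705) at chr12:14774405-14778002 on the plus strand. The canonical transcripts of these 3 genes have 1 exon, like a replication-dependent histone gene. H2AZ1 (ENSG00000164032, chr4:99948086-99950355, minus strand) and H2AZ2 (ENSG00000105968, chr7:44826791-44848087, minus strand) have 5 exons each and together encode H2A.Z. H3-3A (ENSG00000163041, chr1:226061851-226072019, plus strand) and H3-3B (ENSG00000132475, chr17:75776434-75785893, minus strand) have 4 exons each and encode H3.3. MACROH2A1 (ENSG00000113648, chr5:135334381-135399914, minus strand) and MACROH2A2 (ENSG00000099284, chr10:70052544-70112282, plus strand) have 9 exons each.

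The histone stem-loop divides the members, so its letters are shown first. The commonest form stood in 39 of the 66 replication-dependent genes, and H2AX was the only one of the 9 members whose transcript held the pattern that most of these genes share, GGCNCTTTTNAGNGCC, where N is any base. A script found both in the transcripts, as a run of 16 bases with a perfect stem of 6. Capitals mark the whole stem-loop.
Replication-dependent genes, commonest form: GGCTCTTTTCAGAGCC
H2AX: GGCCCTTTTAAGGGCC
In H2AX these letters lay in the 3′ UTR, 53 bases past the last sense codon, at chr11:119094898-119094913 on the minus strand (GRCh38), and the annotated transcript ran on for 1024 bases after them. The shared pattern was found in 62 of the 66 replication-dependent genes and in 71 of the 29856 genes of the table that had a transcript. It was built from the transcripts of these same 66 genes, so its share among them follows largely from that choice. H2AX is known to give both a short mRNA that ends at the stem-loop and a longer polyadenylated one, and the values here count them together.

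The promoters of the 4 members that were lower in every treatment, H2AX, H2AZ1, H2AZ2 and H1-10, and of H3-3B, whose direction depended on the time, are shown next. Each is the stretch of 250 bases before the RefSeq start (GRCh38.p14), 5′ to 3′ on the gene's own strand, and capitals mark the motifs searched on both strands. CCAAT is the box bound by NF-Y and TATAAA is a TATA box. The motif GCGGGAA is a form of the E2F site, as is GCGCCAA, whose last letters can also begin a CCAAT box. The motif TTTGAA is a form of the cell cycle homology region, as is TTCGAA, which reads the same on both strands.
H2AX, chr11:119095466-119095715, minus strand: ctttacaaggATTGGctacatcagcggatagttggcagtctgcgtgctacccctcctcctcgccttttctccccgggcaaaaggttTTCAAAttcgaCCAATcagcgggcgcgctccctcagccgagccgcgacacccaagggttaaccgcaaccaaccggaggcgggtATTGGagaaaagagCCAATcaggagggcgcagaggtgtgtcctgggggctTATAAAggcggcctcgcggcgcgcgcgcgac
H2AZ1, chr4:99950276-99950525, minus strand: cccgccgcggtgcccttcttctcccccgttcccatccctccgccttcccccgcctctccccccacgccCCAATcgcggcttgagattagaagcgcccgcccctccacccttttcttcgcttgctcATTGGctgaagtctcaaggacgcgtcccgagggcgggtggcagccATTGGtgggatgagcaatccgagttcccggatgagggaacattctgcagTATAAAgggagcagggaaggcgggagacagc
H2AZ2, chr7:44848088-44848337, minus strand: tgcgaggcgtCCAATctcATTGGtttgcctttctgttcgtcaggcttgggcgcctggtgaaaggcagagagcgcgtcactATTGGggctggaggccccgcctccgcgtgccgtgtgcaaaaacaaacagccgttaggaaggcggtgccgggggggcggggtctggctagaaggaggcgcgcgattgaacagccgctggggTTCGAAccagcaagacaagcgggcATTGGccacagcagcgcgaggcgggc
H1-10, chr3:129316287-129316536, minus strand: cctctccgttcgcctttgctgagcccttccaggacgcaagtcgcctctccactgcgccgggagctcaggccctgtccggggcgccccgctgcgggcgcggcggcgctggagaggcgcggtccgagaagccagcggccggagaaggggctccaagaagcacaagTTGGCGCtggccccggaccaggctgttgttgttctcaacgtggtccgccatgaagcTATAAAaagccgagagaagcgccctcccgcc
H3-3B, chr17:75779780-75780029, minus strand: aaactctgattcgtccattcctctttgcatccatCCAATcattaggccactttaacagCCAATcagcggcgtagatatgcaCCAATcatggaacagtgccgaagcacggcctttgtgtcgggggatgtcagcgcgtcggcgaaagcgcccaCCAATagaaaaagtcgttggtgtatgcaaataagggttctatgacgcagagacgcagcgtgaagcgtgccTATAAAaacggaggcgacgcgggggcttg
CCAAT occurred 4 times in H2AX, in H2AZ2 and in H3-3B, 3 times in H2AZ1 and in H2AJ, and 1 time in H3-3A. It was found in 6 of the 9 members and in 32.01% of 35116 promoters, and 3 or more copies stood in 2.93% of promoters. Each member was searched only in its promoter at the canonical transcript start, while the 35116 promoters can include several of 1 gene. H3-3A had 4 listed promoters and MACROH2A1 had 2, and their other promoters were not described. TATAAA began 31 bases before the start in H1-10, H2AX and H2AZ1 and 29 bases before it in H3-3B, and 10.7% of all promoters held it. H2AX also held TTTGAA (13.3% of promoters), H2AZ2 held TTCGAA (1.19%) and H1-10 held GCGCCAA (2.56%), while GCGGGAA (5.52%) was in none of the 9. Both CCAAT and TATAAA stood in H2AX, H2AZ1 and H3-3B, and any link of these letters to the changes in RNA was not tested. A match is a description of these letters and says nothing of a factor's binding.

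Paralogs that encode nearly the same protein can share reads, so the coding sequences were compared. H2AZ1 and H2AZ2 were identical at 309 of 384 coding bases (80.5%) with no shared run over 23 bases, and H3-3A and H3-3B at 320 of 408 (78.4%) with none over 14. MACROH2A1 and MACROH2A2 shared 754 of 1116 aligned bases (67.6%), with no run over 17. The start of each coding sequence (the first 60 bases, GENCODE transcripts) shows how the pairs are told apart, with capitals at the bases that differ within a pair, 12 in the first pair and 13 in the second.
H2AZ1: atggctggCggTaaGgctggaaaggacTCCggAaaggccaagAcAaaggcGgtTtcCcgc
H2AZ2: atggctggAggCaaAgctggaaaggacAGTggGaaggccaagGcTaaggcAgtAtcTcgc
H3-3A: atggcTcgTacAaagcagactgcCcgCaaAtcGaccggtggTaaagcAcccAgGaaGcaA
H3-3B: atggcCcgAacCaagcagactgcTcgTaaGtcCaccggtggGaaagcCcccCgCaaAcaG
H3-3A matched 5 other annotated genes over 100 bases or more at 98% identity or more. Of these, 1 was in the table, the long non-coding gene ENSG00000290018, which matched over 411 bases at 100% and averaged 996 normalised counts against 6429 for H3-3A, so the value of H3-3A is uncertain. H1-10 shared 345 bases with its antisense gene H1-10-AS1, MACROH2A1 shared 4706 bases with PITX1-AS1, H2AZ1 shared 223 with H2AZ1-DT, H3-3A 48 with H3-3A-DT, H3-3B 179 with UNK and MACROH2A2 986 with AIFM2, and whether the counting used strand is not given in the sources used here.

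All values are the authors' normalised counts, which are read counts rescaled between libraries. The 36 libraries summed to between 20675156 and 22692555 normalised counts and had 19708 to 21405 genes above 0, and each correlated with the other replicates of its group at r of at least 0.986 on the log2 scale. The luminal prostate gene KLK3 (19802 to 55194 normalised counts) was high in every library, whereas 7 of 12 markers of basal, fibroblast, leukocyte and endothelial cells, among them KRT5, TP63, DCN and PTPRC, never exceeded 7.09. The other 5 (COL3A1, KRT14, CD68, COL1A1 and VWF) reached between 36.9 and 713 in their highest library. Mitochondrial genes took 6.34% to 8.66% of the total.

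Divided by the length of the canonical transcript in kilobases, the vehicle libraries at 24 h put H2AZ1 first, at 6286 ± 106 normalised counts per kb (SD, n = 3), and H3-3A second, at 5618 ± 87.4. MACROH2A1 followed at 4132 ± 86.6, H2AX at 3177 ± 87.1, H3-3B at 2645 ± 112, H2AJ at 2155 ± 132 and H1-10 at 1811 ± 58.8. H2AZ2, at 995 ± 41.5, and MACROH2A2, at 537 ± 17.6, were the lowest, and no neighbours in this order overlapped in their libraries. At 72 h the vehicle libraries of H2AZ1 and H3-3A overlapped, and so did those of H2AJ and H3-3B. Across the 12 groups H2AX moved between places 4 and 8, and MACROH2A2 stayed at place 9. The order rests on the transcript chosen, because with merged exon lengths H2AX came first (3177) and H2AZ1 second (2398).

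Against vehicle, the 9 members fell into a set that was lower throughout and a set that moved little or depended on the time. Values were compared as log2(normalised count + 1) with limma, and a gene was called at an adjusted p of at most 0.05 over all genes of the comparison. At 24 h, 26 of the 45 pairs of member and treatment were lower and 5 were higher, and at 72 h 31 were lower and 1 was higher. H2AX, H2AZ1, H2AZ2 and H1-10 were lower in all 5 treatments at both times and gave 20 of the lower pairs at each.

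At 24 h, AU2-94 at 1 µM lowered 5 members, against 13.5% of all genes tested, and raised 1 (14.3%). AU2-94 at 2 µM lowered 5 (14.9%) and raised 3 (16.0%), and ribociclib lowered 5 (15.2%) and raised 1 (16.8%). Atirmociclib lowered 6 members at 1 µM (15.4%) and 5 at 2 µM (16.2%), while the background of higher calls was 16.6% and 18.6%. The median log2 change of the 9 members was -0.23 (1 µM) and -0.21 (2 µM) for AU2-94, -0.33 and -0.48 for atirmociclib and -0.31 for ribociclib, where the median of all genes lay between -0.0032 and 0.0049. In each treatment the members' share of lower calls was above that of all genes, and their share of higher calls was above it only with AU2-94 at 2 µM.

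At 72 h, AU2-94 lowered 6 members at 1 µM (17.0% of all genes were lower and 15.4% higher) and 6 at 2 µM (15.3% and 14.2%). Atirmociclib lowered 7 at 1 µM (19.8% and 20.0%) and 6 at 2 µM (19.6% and 20.9%). Ribociclib lowered 6 (15.4%) and raised 1 (15.5%). The members' medians were -0.33, -0.30, -0.36, -0.42 and -0.22 in the same order, with the median of all genes between -0.0083 and 0.0059. When libraries were rescaled to equal totals, lower genes made up 60.1%, 62.1% and 59.7% of all calls at 24 h with atirmociclib at 1 and 2 µM and ribociclib, in place of 48.2%, 46.5% and 47.6% (40.4%, 38.7% and 41.3% with quantile normalisation), and 60.7% in place of 48.5% with atirmociclib at 2 µM for 72 h. With AU2-94 at 1 and 2 µM, equal totals gave 58.1% and 55.75% at 24 h in place of 48.6% and 48.3%. At 72 h they gave 45.3% and 44.8% in place of 52.3% and 51.8%. No call of a member changed direction under any scaling tried.

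**Figure D1:**
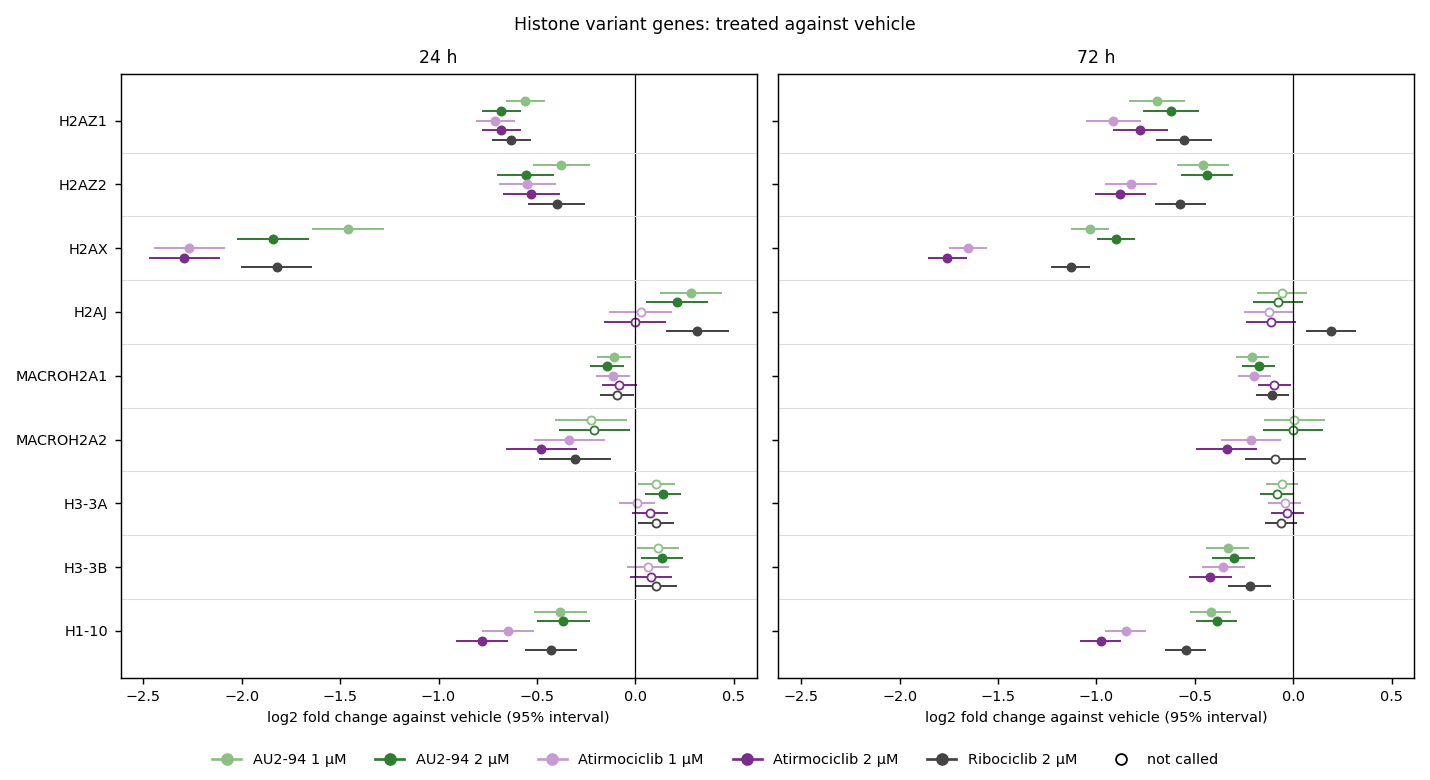
Log2 fold change against vehicle of each member for the 5 treatments at 24 h and 72 h, with 95% confidence intervals and open symbols where the change was not called. H2AX sat at -1.46 to -2.29 at 24 h and at -0.90 to -1.76 at 72 h, and H3-3B was below 0 only at 72 h.

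H2AX changed most of the 9. At 24 h its replicates 1 to 3 held 4934, 5208 and 5031 normalised counts with vehicle, 1719, 1804 and 1999 with AU2-94 at 1 µM, and 1238, 1409 and 1609 at 2 µM. Atirmociclib gave 980.2, 1126 and 1049 at 1 µM and 1096, 1054 and 950.0 at 2 µM, and ribociclib gave 1439, 1372 and 1476. Every treated library was thus far below the vehicle libraries, at group means of 36.4%, 28.1%, 20.8%, 20.4% and 28.3% of vehicle. The log2 changes were -1.46, -1.84, -2.27, -2.29 and -1.82 (standard error 0.084), and the largest of the 5 adjusted p was 5.57e-10.

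By 72 h the H2AX gap was narrower. Vehicle libraries held 5577, 5651 and 5680.3 normalised counts, AU2-94 libraries 2786, 2771 and 2714 at 1 µM and 3133, 2901 and 3023 at 2 µM. Atirmociclib gave 1874, 1777 and 1727 at 1 µM and 1646, 1663 and 1693 at 2 µM, and ribociclib gave 2518, 2555 and 2645. The groups did not overlap with vehicle, and the means stood at 48.9%, 53.6%, 31.8%, 29.6% and 45.6% of it. The log2 changes were -1.03, -0.90, -1.65, -1.76 and -1.13 (standard error 0.044, largest adjusted p 6.89e-11).

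The loss of H2AX stood beside that of proliferation genes. All 10 genes of a proliferation list, such as MKI67 and RRM2, were lower in each treatment at both times, with list medians of -2.77 to -1.45 after 24 h and -1.79 to -0.64 after 72 h. Of the replication-dependent histone genes, 55 were tested at 24 h and 49 to 52 of them were lower, with medians from -2.79 to -1.43, and 57 were tested at 72 h, of which 49 to 53 were lower, with medians from -2.28 to -0.94. The log2 changes of H2AX lay within the range of the proliferation medians at both times, and in each treatment those of the other 8 members were nearer to 0. In such bulk RNA, a lower share of cycling cells and less RNA in each cell cannot be told apart.

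Both H2A.Z genes were lower throughout. H2AZ1 held 5462, 5344 and 5525 normalised counts with vehicle at 24 h, 3872, 3546 and 3678 with AU2-94 at 1 µM and 3284, 3385 and 3510.3 at 2 µM. Atirmociclib gave 3413, 3384 and 3178 at 1 µM and 3557, 3331 and 3309 at 2 µM, and ribociclib gave 3550.0, 3460.0 and 3536. The 5 treatments lay close together, at 61.1% to 67.9% of vehicle, with log2 changes of -0.56, -0.68, -0.71, -0.68 and -0.63 (standard error 0.045, largest adjusted p 3.6e-08).

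At 72 h H2AZ1 held 5689.7, 5831 and 5191 normalised counts with vehicle, 3279, 3445 and 3609.5 with AU2-94 at 1 µM and 3794, 3504 and 3562 at 2 µM. Atirmociclib gave 2868, 2979 and 3008 at 1 µM and 3244, 3146 and 3359.8 at 2 µM, and ribociclib gave 3684, 4242 and 3472. No treated library reached the vehicle libraries, and the log2 changes were -0.69, -0.62, -0.91, -0.78 and -0.56 (standard error 0.065, largest adjusted p 2.55e-06).

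H2AZ2 had log2 changes nearer to 0 than H2AZ1 in each treatment at 24 h. Its vehicle libraries held 3147, 2901 and 2981 normalised counts, and AU2-94 gave 2214, 2325 and 2418 at 1 µM and 1889, 2309.8 and 1958 at 2 µM. Atirmociclib gave 1918, 2164 and 2092 at 1 µM and 2068, 2138 and 2052 at 2 µM, and ribociclib gave 2321, 2317 and 2199. All 15 treated libraries were below vehicle, with log2 changes of -0.38, -0.56, -0.55, -0.53 and -0.40 (standard error 0.067, largest adjusted p 0.000336).

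At 72 h H2AZ2 held 3076, 3158 and 2874 normalised counts with vehicle, 2259, 2232 and 2129.8 with AU2-94 at 1 µM and 2245, 2187 and 2287 at 2 µM. Atirmociclib gave 1687, 1695 and 1761 at 1 µM and 1668, 1699.9 and 1587 at 2 µM, and ribociclib gave 2110.0, 2187 and 1837. The atirmociclib libraries were the lowest, at 56.5% and 54.4% of vehicle, against 72.7% and 73.8% with AU2-94. The log2 changes were -0.46, -0.44, -0.82, -0.88 and -0.57 (standard error 0.060, largest adjusted p 2.24e-05).

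The balance of the H2A.Z pair shifted a little at 24 h. The log2 ratio of H2AZ1 to H2AZ2 was 0.856 ± 0.0523 in the 3 vehicle libraries and 0.685 ± 0.100 in the 15 treated ones (SD), a difference of -0.17 (two-sided exact permutation test over 816 splits, p = 0.006127, adjusted over 6 ratio tests 0.01838). With the replicate number as a block the adjusted p of this exact permutation test was 0.0556, and without vehicle replicate 2 or 3 it was 0.11 or 0.132. At 72 h the difference was -0.08 (exact permutation test, adjusted p = 0.557), but the treatments lay on both sides of vehicle. As a linear ratio, vehicle libraries spanned 1.8062 to 1.8496, and AU2-94 libraries 1.45 to 1.69 at 1 µM and 1.56 to 1.69 at 2 µM. Atirmociclib gave 1.70 to 1.76 at 1 µM and 1.8505 to 2.1174 at 2 µM, and ribociclib gave 1.75 to 1.94. Single treatments were not tested for this ratio. The 15 treated libraries pool 5 treatments, so the test addresses treatment with any compound.

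**Figure D2:**
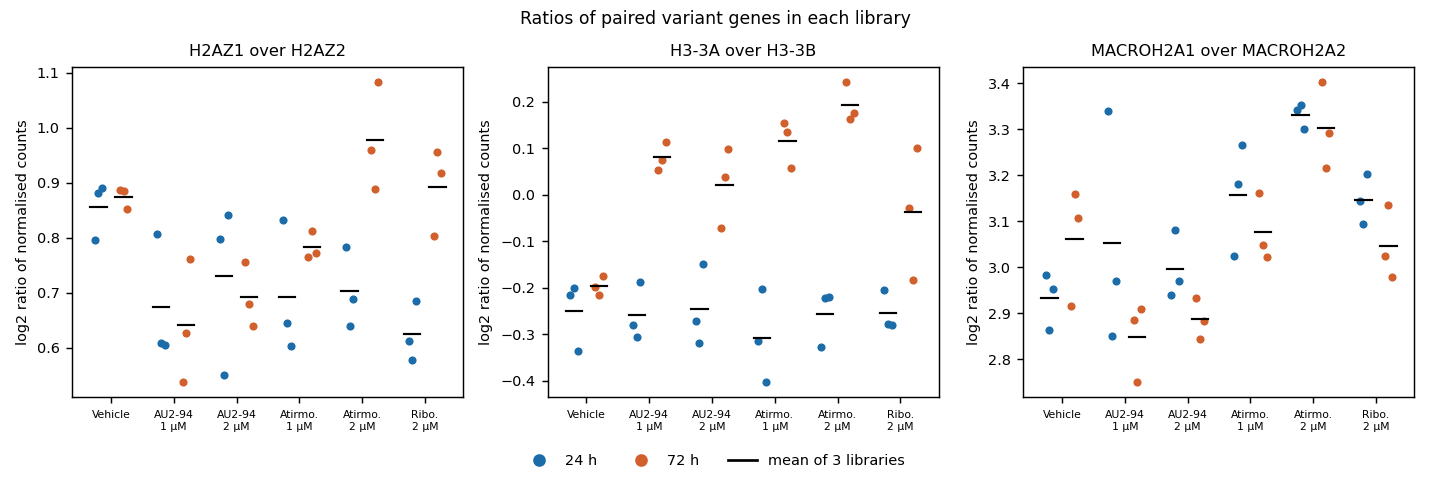
Log2 ratio of the normalised counts of each paralog pair (vertical axis) in every library, by group, at 24 h and 72 h. At 72 h the log2 ratio of H3-3A to H3-3B was -0.22 to -0.17 with vehicle and -0.18 to 0.24 in treated libraries.

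H1-10 fell less with AU2-94 than with atirmociclib. At 24 h vehicle libraries held 2845, 2713 and 2676 normalised counts, AU2-94 libraries 2085, 2152 and 2084 at 1 µM and 2146, 2235 and 2015 at 2 µM. Atirmociclib gave 1726, 1770.3 and 1755 at 1 µM and 1747, 1455 and 1610.5 at 2 µM, and ribociclib gave 2122, 1926 and 2066. No treated library overlapped with vehicle, and the log2 changes were -0.38, -0.37, -0.65, -0.78 and -0.43 (standard error 0.061, largest adjusted p 0.000154).

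At 72 h H1-10 held 2929.8, 3254 and 3117 normalised counts with vehicle, 2373, 2293 and 2288 with AU2-94 at 1 µM and 2385, 2362 and 2353 at 2 µM. Atirmociclib gave 1764, 1702 and 1689 at 1 µM and 1589, 1597 and 1529 at 2 µM, and ribociclib gave 2203, 2093 and 2068. AU2-94 stood at 74.8% and 76.3% of vehicle, ribociclib at 68.4% and atirmociclib at 55.4% and 50.7%, and the difference between ribociclib and AU2-94 at 2 µM was not called (-0.16, adjusted p = 0.0763). The log2 changes were -0.42, -0.39, -0.85, -0.98 and -0.55 (standard error 0.047, largest adjusted p 6.47e-06).

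The H3.3 genes parted at 72 h. At 24 h H3-3B held 7093, 6887 and 7485 normalised counts with vehicle, 7952, 7629 and 7651 with AU2-94 at 1 µM and 7727, 8203 and 7657 at 2 µM. Atirmociclib gave 7453, 7262 and 7736 at 1 µM and 8202, 7349 and 7182 at 2 µM, and ribociclib gave 7470.1, 7801 and 7832. The treated means stood at 105% to 110% of vehicle, and atirmociclib and ribociclib libraries overlapped with the vehicle libraries. AU2-94 at 2 µM was called higher, at 0.14 (adjusted p = 0.0402), a call lost without AU2-94 replicate 1 or 2 or vehicle replicate 1 or 2 (log2 0.11 to 0.15, adjusted p 0.0532 to 0.164) and with the replicate number as a block (0.0547). The other log2 changes were 0.12, 0.07, 0.08 and 0.11 (standard error 0.049, adjusted p 0.089 to 0.342).

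At 72 h H3-3B held 7497, 8079 and 7597 normalised counts with vehicle, 6146, 6184 and 6058 with AU2-94 at 1 µM and 6489, 6282 and 6031 at 2 µM. Atirmociclib gave 5907, 5927 and 6269 at 1 µM and 5817, 5739 and 5748 at 2 µM, and ribociclib gave 6566, 7198 and 6144. All treated libraries were below vehicle, at group means of 74.7% to 85.9%. The log2 changes were -0.33, -0.30, -0.36, -0.42 and -0.22 (standard error 0.050, largest adjusted p 0.00213).

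H3-3A, the other H3.3 gene, moved little. Its vehicle libraries held 6112, 5994 and 5927 normalised counts at 24 h and 6536, 6958 and 6730.2 at 72 h, and treated libraries spanned 5848 to 6910.1 at the earlier time and 6179 to 6879.9 at the later one. AU2-94 at 2 µM for 24 h, with 6406, 6580.2 and 6910.1, was called higher, at 0.14 (standard error 0.041, adjusted p = 0.0141), and the call was lost without AU2-94 replicate 3 or vehicle replicate 3 (0.11 to 0.13, adjusted p 0.0501 to 0.076). The other 4 changes at 24 h were 0.01 to 0.11 (adjusted p 0.0613 to 0.898), and the 5 at 72 h were -0.08 to -0.03 (adjusted p 0.104 to 0.542, standard error 0.037). With equal totals, atirmociclib at 2 µM for 72 h was called lower (-0.11, 0.0322), and with all 12 groups in 1 fit AU2-94 at 1 µM (0.0292) and ribociclib (0.0328) were called higher at 24 h.

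The log2 ratio of H3-3A to H3-3B at 72 h was accordingly higher after treatment, at 0.0752 ± 0.107 (SD, 15 libraries) against -0.196 ± 0.0204 (3 libraries), a difference of 0.27 (exact permutation test, p = 0.002451, adjusted p = 0.01471). As a linear ratio it rose from 0.873 ± 0.0124 with vehicle to 1.14 ± 0.0341 with atirmociclib at 2 µM. At 24 h the difference was -0.014 (exact permutation test, adjusted p = 0.794). Whether reads of H3-3A and ENSG00000290018, which share sequence, were mixed in these values was not tested.

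H2AJ, an H2A variant encoded by a gene on chromosome 12 outside the main histone clusters, was not called lower in any treatment on the deposited scale. At 24 h vehicle libraries held 1245, 1359.7 and 1403 normalised counts, AU2-94 libraries 1709, 1544 and 1618 at 1 µM and 1359, 1596 and 1697 at 2 µM, and ribociclib libraries 1634, 1666 and 1682. Atirmociclib gave 1276, 1359 and 1449 at 1 µM and 1336, 1347 and 1315 at 2 µM, which overlapped with vehicle. AU2-94 at 1 µM and ribociclib did not overlap with vehicle and were called higher, at 0.28 (adjusted p = 0.00739) and 0.32 (adjusted p = 0.00267; standard error 0.073). AU2-94 at 2 µM was called at 0.21 (adjusted p = 0.0358), and this was lost without its replicate 2 or 3 or vehicle replicate 1 or 2 (0.14 to 0.22, adjusted p 0.0593 to 0.183). Atirmociclib gave 0.03 and -0.0020 (adjusted p 0.82 and 0.987).

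At 72 h H2AJ held 1800.1, 1774 and 1833 normalised counts with vehicle and 1864, 2271 and 2069.7 with ribociclib, which was called higher at 0.19 (standard error 0.058, adjusted p = 0.0156). Without ribociclib replicate 2 or vehicle replicate 2 the call was lost (0.12 to 0.18, adjusted p 0.0518 to 0.0927). Libraries of AU2-94 lay between 1673 and 1773 and those of atirmociclib between 1614 and 1718, below vehicle by log2 changes of -0.06 to -0.12 that were not called (adjusted p 0.102 to 0.488). With equal totals atirmociclib was called lower at 1 µM (-0.16, 0.0281) and at 2 µM (-0.19, 0.012).

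MACROH2A1, the more abundant macroH2A gene, was slightly below vehicle in all treated libraries. At 24 h vehicle libraries held 7905, 7765 and 8095 normalised counts and the 15 treated libraries 6816 to 7712 (median 7418), and at 72 h vehicle held 8315, 8588 and 8739 and treated libraries 7235 to 8231 (median 7639.8). The groups did not overlap, but the changes were small. At 24 h AU2-94 at 1 µM (-0.11, adjusted p = 0.0488), at 2 µM (-0.14, 0.00871) and atirmociclib at 1 µM (-0.11, 0.0353) were called lower, whereas atirmociclib at 2 µM (-0.08, 0.122) and ribociclib (-0.09, 0.0752) were not (standard error 0.039). Both were called lower with quantile normalisation (-0.15, 0.003, and -0.16, 0.0022) and with equal totals (-0.16, 0.00402, and -0.15, 0.00499). Leaving out 1 library ended each of these calls: AU2-94 at 1 µM without its replicate 2 or 3 or any vehicle replicate (adjusted p 0.0597 to 0.187), AU2-94 at 2 µM without its replicate 1 (0.0503), and atirmociclib at 1 µM without its replicate 1 or 2 or vehicle replicate 1 or 3 (0.0736 to 0.121). With the replicate number as a block, AU2-94 at 1 µM had an adjusted p of 0.0575.

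At 72 h MACROH2A1 fell with AU2-94 at 1 µM (-0.21, adjusted p = 0.000332), AU2-94 at 2 µM (-0.18, 0.00166) and atirmociclib at 1 µM (-0.20, 0.000367). Ribociclib was called at -0.11 (0.0403) and atirmociclib at 2 µM was not, at -0.10 (0.0512; standard error 0.038). The ribociclib call was lost without its replicate 1 or 3 or vehicle replicate 2 or 3 (0.0515 to 0.159) and with the replicate block (0.0508), and atirmociclib at 2 µM was called without its replicate 1 or vehicle replicate 1 (0.0382 to 0.0396), with quantile normalisation (-0.18, 0.00083) and with equal totals (-0.17, 0.00102).

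MACROH2A2, the scarcer macroH2A gene, had its lowest group means with atirmociclib at both times. At 24 h vehicle libraries held 999.5, 1066 and 1045 normalised counts, AU2-94 libraries 748 to 981, atirmociclib libraries 884, 809 and 775 at 1 µM and 737, 714 and 782 at 2 µM, and ribociclib libraries 845, 858 and 811. Atirmociclib at 1 µM (-0.33, adjusted p = 0.00477) and 2 µM (-0.48, 0.000204) and ribociclib (-0.31, 0.00853) were called lower, while AU2-94 gave -0.23 (0.0523) and -0.21 (0.0693; standard error 0.084). The value for AU2-94 at 1 µM was called without its replicate 2 or 3 (0.0186 to 0.0426), its replicate 1 being the lowest of the 3, and with equal totals both AU2-94 doses were called lower (-0.27, 0.0255, and -0.24, 0.0357).

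At 72 h MACROH2A2 held 1102, 961 and 1014 normalised counts with vehicle, 809.5, 923 and 921 with atirmociclib at 1 µM and 779, 848 and 806 at 2 µM. Atirmociclib was called lower at 1 µM (-0.21, adjusted p = 0.0222) and at 2 µM (-0.34, 0.000857). The call at 1 µM was lost without its replicate 1 or vehicle replicate 1 (-0.16 to -0.15, 0.114 to 0.127) and with quantile normalisation (-0.17, 0.0756). AU2-94 (0.0058 and -0.0014) and ribociclib (-0.09) overlapped with vehicle and were not called (standard error 0.071, adjusted p 0.363 to 0.992). With all treatments pooled, the ratio of MACROH2A1 to MACROH2A2 differed from vehicle by 0.20 on the log2 scale at 24 h and by -0.028 at 72 h (exact permutation test, adjusted p 0.118 and 0.794). The mean linear ratio at 24 h was 7.65 with vehicle, 10.1 with atirmociclib at 2 µM and 7.99 to 8.94 in the other treatments. At 72 h it was 8.37 with vehicle, 7.21 and 7.40 with AU2-94 at 1 and 2 µM, 8.45 and 9.89 with atirmociclib at 1 and 2 µM, and 8.27 with ribociclib. Single treatments were not tested for this ratio.

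The effects of the treatments were not the same at both times, and H2AX and H3-3B changed most. Of 45 pairs of member and treatment, 18 had an effect against vehicle that differed between 72 h and 24 h in 1 fit over all 12 groups, where 21.6%, 18.5%, 21.9%, 21.6% and 20.2% of all genes did so under AU2-94 (lower and higher dose), atirmociclib (lower and higher dose) and ribociclib, respectively. H2AX accounted for 5 of these, its log2 change being weaker at 72 h by 0.43, 0.94, 0.61, 0.54 and 0.69 (standard error 0.095, largest adjusted p 0.00128). H3-3B gave another 5, with effects that were lower at 72 h by -0.45, -0.44, -0.42, -0.50 and -0.33 (standard error 0.070, largest adjusted p 0.000841).

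The effects of the remaining 8 pairs were also lower at 72 h, by -0.16 to -0.35. Vehicle means at 24 h and 72 h were 6011 and 6741 for H3-3A and 1336 and 1802 for H2AJ. They were 2745 and 3100 for H1-10 and 3010 and 3036 for H2AZ2. Treated H3-3A means were 6480 and 6481 (AU2-94, 1 µM), 6632 and 6363 (2 µM) and 6456 and 6457 (ribociclib). Those of H2AJ were 1624 and 1732 (AU2-94, 1 µM) and 1551 and 1708 (2 µM). Atirmociclib at 1 µM gave 1750 and 1718 for H1-10 and 2058 and 1715 for H2AZ2, and at 2 µM 2086 and 1651 for H2AZ2. H3-3A differed with AU2-94 at 1 µM (-0.16, adjusted p = 0.0238), AU2-94 at 2 µM (-0.22, 0.00244) and ribociclib (-0.17, 0.024), and H2AJ with AU2-94 at 1 µM (-0.34, 0.00796) and 2 µM (-0.29, 0.0267). H2AZ2 differed with atirmociclib at 1 µM (-0.27, 0.026) and 2 µM (-0.35, 0.00472), and H1-10 with atirmociclib at 1 µM (-0.20, 0.0493), next to -0.20 (0.0511) at 2 µM. Calls with an adjusted p above 0.02 here were lost without 1 of several libraries: H1-10 without any of 9 (0.0603 to 0.143), H2AZ2 at 1 µM without any of 7 (0.0507 to 0.08), H2AJ at 2 µM without any of 5 (0.0542 to 0.108), and H3-3A without any of 5 for AU2-94 at 1 µM (0.0526 to 0.0806) or any of 3 for ribociclib (0.0524 to 0.0767). The H3-3A differences depended on the scaling: with quantile normalisation they were -0.063, -0.14 and -0.088 (adjusted p 0.415, 0.053 and 0.24), so that none was called, and with equal totals AU2-94 at 1 µM (-0.089, 0.224) and ribociclib (-0.12, 0.103) were not. H1-10 was also lost under both scalings (-0.18 each, 0.0812 and 0.0774), and H2AJ with AU2-94 at 2 µM with equal totals (-0.22, 0.0857).

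The vehicle groups themselves were compared, since every effect is set against them. In the vehicle libraries 3 members were higher at 72 h than at 24 h, where 7.50% of all genes differed in either direction. These were H2AJ by 0.43 (adjusted p = 4.02e-05), H3-3A by 0.17 (0.00438) and H1-10 by 0.17 (0.0365), the last of which was lost without replicate 2 or 3 of either vehicle group (0.14 to 0.17, adjusted p 0.0955 to 0.183), with quantile normalisation (0.15, 0.0757) and with equal totals (0.12, 0.165). When only the vehicle groups were fitted, H3-3A had an adjusted p of 0.0547. Vehicle H2AX (0.16, adjusted p = 0.164) and H3-3B (0.11, 0.183) were not called.

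**Figure D3:**
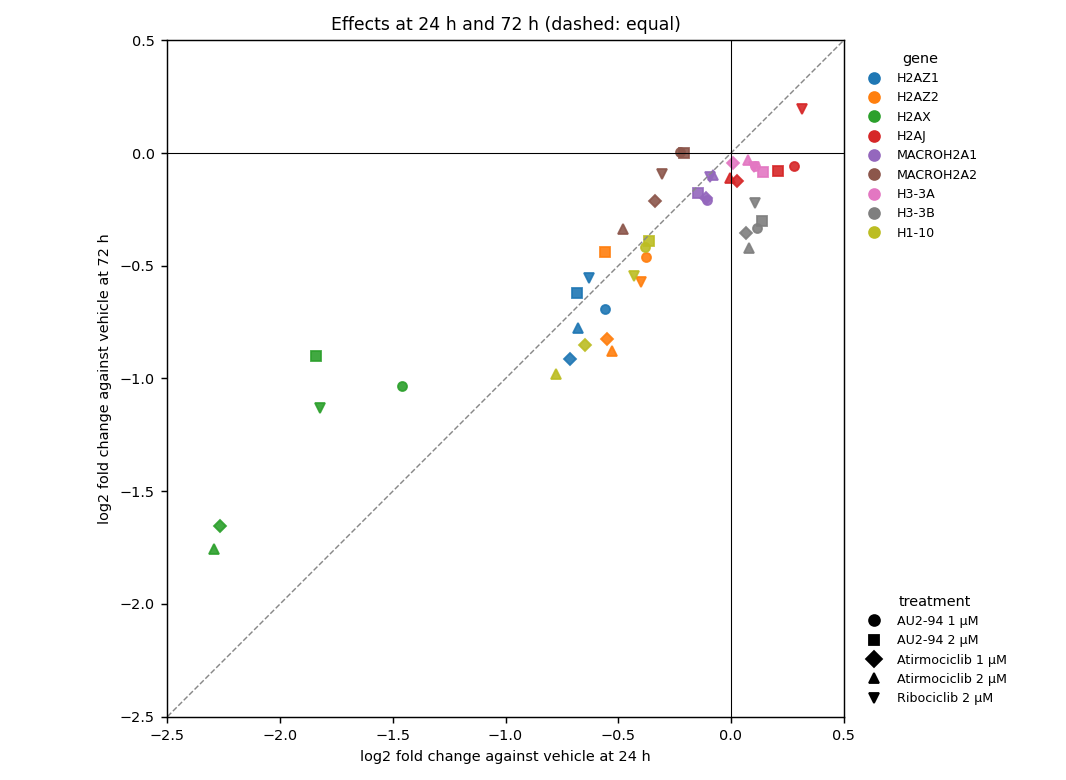
Log2 fold change against vehicle at 24 h (horizontal axis) and at 72 h (vertical axis) for each member and treatment, with a dashed line where both are equal. The 5 points of H2AX lie above the line and the 5 points of H3-3B below it.

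Compounds were compared at matched dose and time in 8 contrasts, which gave 72 pairs of member and contrast. Most called differences set atirmociclib below the other compounds. At 24 h atirmociclib was below AU2-94 for H2AX at 1 µM (-0.81, standard error 0.084, adjusted p = 3.51e-06) and 2 µM (-0.45, 0.00221), and for H1-10 at 1 µM (-0.27, 0.0138) and 2 µM (-0.41, 0.000309). That is 2 of 9 members at each dose, against 4.64% and 9.44% of all genes in either direction. The H1-10 difference at 1 µM was lost without atirmociclib replicate 1 (-0.26, 0.055). MACROH2A2 at 2 µM, at -0.27, had an adjusted p that rounds to 0.05 and lay just past the threshold, so it was not called. With equal totals it was called (-0.31, 0.0299), as were H2AJ at 1 µM (-0.27, 0.0339) and 2 µM (-0.25, 0.0352) and H2AZ1 at 1 µM (-0.17, 0.0205).

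Against ribociclib at 2 µM for 24 h, atirmociclib was lower for H2AX (-0.47, adjusted p = 0.00247), H1-10 (-0.35, 0.00206) and H2AJ (-0.32, 0.016), 3 of 9 members beside 4.64% of all genes. The H2AJ difference was lost without atirmociclib replicate 3 or ribociclib replicate 2 or 3 (0.0536 to 0.0613). Ribociclib and AU2-94 at 2 µM differed for 0 members by limma, beside 0.0372% of all genes, and 1 member had an unadjusted p under 0.05. For H2AX that difference was 0.018 (95% interval -0.16 to 0.19), and for H2AZ2, the member with the unadjusted call, 0.16 (0.016 to 0.30, adjusted p = 0.351).

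At 72 h more members separated the compounds. At 1 µM atirmociclib was below AU2-94 for H2AX (-0.62, adjusted p = 4.59e-08), H1-10 (-0.43, 7.49e-06), H2AZ2 (-0.36, 0.000566) and H2AZ1 (-0.22, 0.0401), 4 of 9 members beside 8.24% of all genes. At 2 µM it was below AU2-94 for H2AX (-0.86, 1.16e-10), H1-10 (-0.59, 4.94e-08), H2AZ2 (-0.44, 3.2e-05) and MACROH2A2 (-0.34, 0.00224), again 4 of 9, beside 19.8%. The H2AZ1 difference was lost without any 1 of 5 libraries (AU2-94 replicate 2 or 3 or any atirmociclib replicate, 0.0768 to 0.158) and with the replicate block (0.0531). Rescaling to equal totals moved the median of all genes in the contrast at 2 µM by -0.10 and added H2AZ1 (-0.26, 0.00565) and H3-3B (-0.22, 0.00228) there and MACROH2A2 at 1 µM (-0.29, 0.0151).

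Atirmociclib was below ribociclib at 72 h for 7 of 9 members, beside 9.18% of all genes. The differences were -0.63 for H2AX (adjusted p = 1.83e-08), -0.43 for H1-10 (6.79e-06), -0.31 for H2AJ (0.00186), -0.30 for H2AZ2 (0.00259), -0.25 for MACROH2A2 (0.0344), -0.22 for H2AZ1 (0.0375) and -0.20 for H3-3B (0.0147). Leaving out 1 library ended the calls of MACROH2A2 (replicate 1 or 3 of either group, 0.0621 to 0.136), H2AZ1 (any atirmociclib replicate or ribociclib replicate 1 or 2, 0.0514 to 0.172) and H3-3B (ribociclib replicate 2, 0.0706). When only the groups compared were fitted, H2AX and H1-10 were still called, while H2AZ2 (0.052), H2AJ (0.0555), H3-3B (0.0969), MACROH2A2 (0.111) and H2AZ1 (0.137) were not. Ribociclib was below AU2-94 for H2AX (-0.23, 0.00704) and above it for H2AJ (0.27, 0.015), 2 of 9 beside 3.34%, and the H2AJ call was lost without AU2-94 or ribociclib replicate 2 (0.0645 to 0.0723). Both were lost when only the groups compared were fitted (0.104 and 0.149), and H1-10 was called below AU2-94 with equal totals (-0.20, 0.0282).

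In the fit of the 6 groups of each time, doubling the dose changed no member past the threshold. By limma, 0 of 18 pairs were called at 24 h, where AU2-94 and atirmociclib changed 0.409% and 0.0124% of all genes between doses, and 0 of 18 at 72 h, where they changed 0% and 2.19%. At an unadjusted p under 0.05, 4 pairs at 24 h and 5 at 72 h passed. The difference furthest from 0 was that of H2AX with AU2-94 at 24 h, -0.38 (95% interval -0.56 to -0.20, adjusted p = 0.0583), and without AU2-94 2 µM replicate 3 it was -0.48 (0.0094). This H2AX difference was also called with all 12 groups in 1 fit (0.0013), with only genes of a mean of at least 100 (0.0429) and with equal totals (0.048).

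The genes for proteins that place, remove and read these variants were described from lists, whose medians stand beside all-gene medians of -0.0083 to 0.0059 over the 10 comparisons with vehicle. The share of all genes called lower was 13.5% to 16.2% at 24 h (higher: 14.3% to 18.6%). At 72 h it was 15.3% to 19.8% (higher: 14.2% to 20.9%). Of 8 genes of H3.3 deposition, 3 were lower and 1 higher in each treatment at 24 h, with list medians from -0.18 to 0.03, and at 72 h 1 to 3 were lower and 2 higher, with medians from -0.03 to 0.07. ATRX, which loads H3.3 at repeats with DAXX, was higher by a mean log2 change of 0.37 at 24 h and 0.34 at 72 h over the 5 treatments, and DEK, a chromatin protein that binds H3.3, was lower by -1.21 and -0.80. DAXX itself was lower in all 5 treatments at 24 h (mean -0.30), but at 72 h it averaged 0.12 and was called in 0 of 5. Of the HIRA complex, the subunit gene CABIN1 was higher by 0.50 at 72 h (0.0015 at 24 h, 0 of 5 called). UBN1 was lower by -0.39 at 24 h (-0.08 at 72 h, 0 of 5 called). HIRA was lower in 4 of 5 treatments at 72 h (mean -0.19) and averaged -0.10 at 24 h (0 of 5 called). DAXX and HIRA were chosen after their values were seen.

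Of 14 genes of H2A.Z exchange, 6 to 7 were lower and 1 to 3 higher at 24 h (medians -0.28 to -0.15), and 5 to 9 were lower at 72 h (-0.22 to -0.09). ANP32E, the chaperone that takes H2A.Z out of chromatin, had the mean log2 change furthest from 0 of the list, at -1.13 at 24 h and -0.88 at 72 h. BRD8, a subunit of the NuA4 complex, averaged -0.59 at 24 h and -0.17 at 72 h, where 1 of 5 treatments was called. The acetyltransferase of that complex, KAT5, averaged -0.44 at 72 h (-0.07 at 24 h, 0 of 5 called). ZNHIT1, a subunit of the SRCAP complex, was higher by 0.26 at 24 h (-0.0061 at 72 h, 0 of 5 called). Of 9 tested genes for H2AX phosphorylation and its readers, 4 were lower at 24 h (medians -0.24 to -0.11), and 4 to 5 were lower and 1 to 3 higher at 72 h (-0.26 to -0.09). MDC1, the reader of phosphorylated H2A.X, was lower by -1.64 and -0.66, and RNF168, a ubiquitin ligase acting after it, by -0.49 and -0.56. TP53BP1, which binds chromatin near breaks after RNF168 has acted, was higher in all 5 treatments at 72 h (mean 0.40). At 24 h it averaged -0.06 and was called in 0 of 5.

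Of 12 general and replication-coupled histone chaperones, 7 to 8 were lower and 1 to 2 higher at 24 h (medians -0.39 to -0.27), and 8 to 9 were lower at 72 h (-0.45 to -0.26). ASF1B and CHAF1B, which serve new histones at the replication fork, averaged -1.77 and -1.73 at 24 h and -0.95 and -1.15 at 72 h, and NAP1L1, a chaperone of H2A and H2B, was higher by 0.20 at 24 h. CENPA, the centromeric H3 variant, averaged -2.52 at 24 h and -1.03 at 72 h.

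The 3 genes whose group means ran most like each member's are given by Pearson's r over the 12 groups, among 12475 genes. For H2AX these were H2BC18 (0.996), LMNB1 (0.995) and CEP152 (0.995), a histone, a nuclear lamin and a centrosome gene. H1-10 lay nearest to the replication-dependent histone genes H2BC15 (0.977), H4C11 (0.976) and H2AC15 (0.973). H2AZ1 lay nearest to SAPCD2 (0.975), PPM1G (0.974) and RANBP1 (0.974), and H2AZ2 to C9orf40 (0.983) and to HMGB1 and HMGN2 (0.975 each), which encode nucleosome and DNA binding proteins.

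H3-3B lay nearest to RBM3 (0.981), FAM32A (0.976) and PPIA (0.972). H3-3A had lower values, with GPR160 and MAPK3 at 0.846 and VKORC1 at 0.832, and its own range over the groups was narrow. H2AJ lay nearest to PDK3 (0.941), KRT19 (0.922) and CDC73 (0.910), MACROH2A1 to ISG20L2 (0.952), DLAT (0.940) and SCAF1 (0.940), and MACROH2A2 to S100PBP (0.971), RGS3 (0.969) and CNTLN (0.968). The points share libraries and vehicle groups, so these values describe the pattern and carry no test. Values differed when vehicle was taken off: over the 10 treated groups, each less the vehicle mean of its time, the 3 genes of H2AX had r of 0.984 to 0.998, those of H3-3B 0.983 to 0.988, of H2AZ2 0.931 to 0.948 and of MACROH2A2 0.918 to 0.979. The same r was 0.851 to 0.927 for the genes of H1-10, 0.752 to 0.773 for H2AZ1, 0.805 to 0.953 for H3-3A, 0.694 to 0.881 for H2AJ and 0.537 to 0.853 for MACROH2A1.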

How the data were processed

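RNA from 36 LNCaP libraries (12 groups, 3 biological replicates each) was isolated (TRIzol), and libraries of total RNA were read from both ends. The authors aligned reads to GRCh38 with STAR 2.6.1d in an nf-core pipeline and deposited 1 table of normalised counts, a signal that is no longer whole reads. They used DESeq2 for differential expression, and how the deposited values were scaled is not given in the sources used here. Nor are the counter, annotation release and strand setting. Columns were matched to samples by name. Raw depth is unknown, so no counting interval is given.

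Here the values were transformed as log2(value + 1), so that changes of low genes are understated, and genes with at least 10 in at least 3 libraries were kept. A single fit in limma 3.58.1 (R 4.3.3) took in the 6 groups of each time, with a mean-variance trend and Benjamini-Hochberg adjustment within each comparison, and another took all 12 groups for comparisons between times. The fit was checked on simulated data. The labels give the replicate number as a batch. Same-numbered libraries did not deviate together (r of -0.0755 to 0.0922 at 24 h, and of -0.0707 to 0.0365 at 72 h), and the fit with replicates as a block was an alternative. Treated and vehicle paralog ratios were compared by two-sided exact permutation tests. Overlaps and shared sequence were found with the GRCh38 annotation and BLAST, and promoters came from RefSeq.

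The members and the lists (H3.3 deposition, H2A.Z exchange, H2AX phosphorylation and readers, histone chaperones, other histone genes, proliferation and replication-dependent histones) were chosen with earlier results of these data known. Named genes were all 9 members, the 3 genes nearest to each by correlation among those with a mean of at least 50, and from each list up to 2 genes per direction and time with the largest mean change among those called in all 5 treatments. Alternatives changed the filter, pseudocount, scaling, trend, groups fitted and block, or left out each library in turn. For the paralog ratios only vehicle libraries were left out. Some items are not reported here.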

Additional observations from a re-analysis of the deposited data

Results flagged for a closer look

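The effects below differed between 72 h and 24 h by the interaction term of the limma fit over all 12 groups, each as the log2 change against vehicle at 72 h minus that at 24 h. H2AX differed in all 5 treatments, by 0.4288 and 0.9398 with AU2-94 at 1 and 2 µM, 0.6138 and 0.5357 with atirmociclib at 1 and 2 µM and 0.6914 with ribociclib, so that the reduction was smaller at 72 h. H3-3B differed in the opposite direction in all 5, by -0.4477, -0.4376, -0.4211, -0.5018 and -0.3279 in the same order. For H3-3A the values were -0.1639 and -0.2244 with AU2-94 at 1 and 2 µM and -0.165 with ribociclib, none of which was called with quantile normalisation (-0.0631, -0.1387 and -0.088). H2AJ gave -0.3388 and -0.2881 with AU2-94 at 1 and 2 µM. H2AZ2 gave -0.274 and -0.3494 with atirmociclib at 1 and 2 µM. H1-10 gave -0.2018 with atirmociclib at 1 µM, which was not called with quantile normalisation or equal totals. The vehicle levels of H2AJ, H3-3A and H1-10 were themselves called higher at 72 h, that of H1-10 not with quantile normalisation or equal totals. The groups of 3 are too small for a test of single outlying libraries.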

How the results depend on the processing

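No result changed direction under any alternative where it had been called. Pairs of member and treatment called higher at 24 h numbered 5, and 3 without the filter on low values, with equal totals or without the variance trend (3 to 6 with 1 library left out). The 1 higher pair at 72 h was absent (0) when only the groups compared were fitted (0 to 1 with 1 library left out). Compound differences numbered 7 at 24 h and 11 with equal totals, and 17 at 72 h, 10 when only the groups compared were fitted and 21 with equal totals. Effects that differed between times numbered 18, and 14 with quantile normalisation or 15 with equal totals. Dose differences at 24 h numbered 0, and 1 (H2AX with AU2-94) with a mean of at least 100, with equal totals or with all 12 groups in 1 fit (0 to 1 with 1 library left out). Members differing between the vehicle times numbered 3, and 1 when only those groups were fitted. The log2 ratio of H2AZ1 to H2AZ2 at 24 h, treated less vehicle, was -0.1705 with and without the replicate block, with an adjusted exact permutation p of 0.0556 under the block. It ran from -0.2005 to -0.1532 with 1 vehicle library left out, and treated libraries were not left out for the ratios. Of 252 single comparisons of a member, the block ended 4 calls (MACROH2A1 with AU2-94 at 1 µM for 24 h and with ribociclib for 72 h, H3-3B with AU2-94 at 2 µM for 24 h, and H2AZ1 between atirmociclib and AU2-94 at 1 µM for 72 h) and added 1, H2AJ between atirmociclib and AU2-94 at 1 µM for 24 h (adjusted p = 0.0477), and changed no other call. The causes were not tested. Raw depth is unknown, so what it limits cannot be stated.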
